A study of Mus musculus with 15 samples.

Results

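The 41 heat shock and endoplasmic reticulum (ER) chaperone genes described here were followed in the striatum of sons (F1) and grandsons (F2) of male mice that had received methamphetamine (METH), a psychostimulant, or saline. They were chosen by gene symbol for their known roles in protein folding, with earlier results of these data known, and make up 41 of the 45777 features of the deposited tables. Of them, 27 encode cytosolic heat shock proteins, their co-chaperones, a chaperonin subunit and a heat shock factor, 3 encode mitochondrial chaperones and 11 encode ER chaperones and folding enzymes. All 41 passed the filter on low counts in both generations.

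Chaperones bind unfolded protein chains, keep them from clumping and help them reach their folded shape, and neurons, which cannot dilute damaged protein by dividing, hold high amounts of the constitutive Hsc70 and Hsp90 proteins. In the cytosol, heat shock factors bind heat shock elements in front of the inducible chaperone genes and switch them on within minutes of heat, hypoxia or other protein-damaging stress. In the ER, unfolded protein activates the unfolded protein response, in which the factors Atf6 and Xbp1 act through ER stress elements to raise the ER chaperones.

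All mice were wild-type males of the ICR strain, an outbred stock, and striatum was taken at 7 weeks of age. The METH groups descend from founder males given 5 mg/kg METH under the skin on 21 days in a row from 6 weeks of age, and the saline groups from founder males given 10 mL/kg saline in the same way, and the founders were mated with females that had received no drug. The F2 generation came from F1 males mated with untreated females, and the labels describe no dosing of the sons or grandsons themselves. There were 3 F1 METH, 4 F1 saline, 4 F2 METH and 4 F2 saline libraries, which makes 15, and METH was compared with saline within each generation. The labels do not tie the mice to litters or founders, so littermates may stand in 1 group and the p-values measure only the spread between these libraries.

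The 15 libraries held 31563806 to 50573906 counts each. The labels call the cell type neuronal, but whole striatum was sampled: summed levels of 9 spiny projection neuron markers were 7007 to 10108 CPM (counts scaled to a fixed library total) in F1 METH, 5665 to 8991 CPM in F1 saline, 8815 to 9538 CPM in F2 METH and 7736 to 10202 CPM in F2 saline libraries, and oligodendrocyte, astrocyte, microglial and vascular markers were all detected. In such bulk tissue, fewer cells of a type and less RNA per cell cannot be told apart. Cortical excitatory marker levels varied widely between libraries of 1 group, with Slc17a7, a glutamate transporter gene of cortical neurons, at 10.8, 130.2, 75.3 and 67.2 CPM in F2 METH libraries, against 10.5, 9.80, 55.9 and 182 CPM in F2 saline libraries. In F1, Slc17a7 was at 31.0, 24.0 and 396 CPM in METH libraries, against 322, 98.0, 526 and 9.47 CPM in saline libraries.

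Levels of the members spanned a wide range on the TPM scale, which divides each level by transcript length and so allows genes to be compared. The cytosolic Hsp90 and Hsc70 genes were the most abundant: mean TPM in F1 METH, F1 saline, F2 METH and F2 saline libraries were 1120.2, 1369, 1467 and 1583 for Hsp90ab1, the constitutive Hsp90, 759.9, 1042, 974 and 1177 for Hspa8, which encodes Hsc70, and 417, 555, 541 and 607 for Hsp90aa1, the inducible Hsp90. Calr, the calcium-binding lectin chaperone calreticulin, was the most abundant ER member at 389.9, 458, 459.9 and 579 TPM. The inducible Hsp70 genes and Hspb1 were among the least abundant, with Hspa1a at 4.41, 6.52, 7.64 and 20.5 TPM, Hspa1b at 5.47, 8.90, 9.24 and 23.4 TPM and the small heat shock protein gene Hspb1 at 10.7, 10.8, 8.31 and 16.7 TPM. Hspa1a and Hspa1b encode almost the same protein, and 47.1% of the 100-base windows of the Hspa1a transcript also occur exactly in Hspa1b, so the division of reads between them is uncertain.

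The motifs in their promoters differ between cytosolic and ER members, and 6 promoters are shown, 3 from each compartment, 5 to show the motifs and that of Sdf2l1 as an ER promoter without the motif searched. Promoters of 250 bases before to 50 bases after the start were available for 32 of the 41 members from RefSeq, build GRCm38.p6. A heat shock element was searched as its 2-unit core, GAANNTTC or TTCNNGAA, and an ER stress element as CCAAT and CCACG with 9 bases of any kind between them, each on both strands. The 2-unit core was found in 12 of 21 cytosolic members (57.1%), 2 of 2 mitochondrial members and 0 of 9 ER members, against 4587 of 27025 genes of the table (17.0%). The ER stress element was found in 6 of 9 ER members (Hspa5, Hsp90b1, Pdia6, Calr, Canx and Creld2) and not in those of Sdf2l1, Pdia4 and Pdia3, in 0 of 21 cytosolic and 0 of 2 mitochondrial members, against 37 of the 27025 genes (0.137%). A match describes the letters only, and a promoter with none says only that these letters do not occur in that window.

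The cytosolic promoters shown are those of Hspa1b (chr17:34959189-34959488, minus strand), Hspb1 (chr5:135887669-135887968, plus strand) and Chordc1 (chr9:18292017-18292316, plus strand), written 5′ to 3′ along the gene with every 2-unit heat shock core in capitals. Hspa1b has 1 core, Hspb1 has 2, and Chordc1 has 5, some of which overlap and form the longer 3-unit element, in which 1 more unit follows at the same spacing. That longer element was found in 3 of 21 cytosolic members (Hsph1, Dnajb6 and Chordc1), 2 of 2 mitochondrial members and 0 of 9 ER members, against 179 of the 27025 genes (0.662%).
Hspa1b: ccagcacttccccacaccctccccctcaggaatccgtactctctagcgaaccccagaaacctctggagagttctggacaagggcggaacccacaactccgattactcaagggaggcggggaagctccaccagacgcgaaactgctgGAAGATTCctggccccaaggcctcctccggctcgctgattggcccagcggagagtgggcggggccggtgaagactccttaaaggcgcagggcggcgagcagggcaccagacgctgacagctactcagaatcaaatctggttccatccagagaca
Hspb1: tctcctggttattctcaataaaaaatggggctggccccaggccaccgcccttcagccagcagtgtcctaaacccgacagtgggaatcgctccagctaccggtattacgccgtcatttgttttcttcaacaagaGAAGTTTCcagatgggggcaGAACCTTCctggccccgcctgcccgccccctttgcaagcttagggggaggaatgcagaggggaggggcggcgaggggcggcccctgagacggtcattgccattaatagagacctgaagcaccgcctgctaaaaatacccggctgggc
Chordc1: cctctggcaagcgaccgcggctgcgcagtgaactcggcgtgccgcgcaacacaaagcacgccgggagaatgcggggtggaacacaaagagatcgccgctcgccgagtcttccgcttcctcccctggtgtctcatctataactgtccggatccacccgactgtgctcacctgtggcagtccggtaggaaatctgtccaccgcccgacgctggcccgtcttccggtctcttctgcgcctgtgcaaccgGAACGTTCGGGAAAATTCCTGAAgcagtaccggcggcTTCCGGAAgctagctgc

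The ER promoters shown are those of Hspa5 (chr2:34771840-34772139, plus strand), Hsp90b1 (chr10:86705395-86705694, minus strand) and Sdf2l1 (chr16:17132334-17132633, minus strand), with the ER stress element in capitals. Hspa5 has 1 copy, Hsp90b1 has 2 and Sdf2l1 has 0, so its bases are all in lower case.
Hspa5: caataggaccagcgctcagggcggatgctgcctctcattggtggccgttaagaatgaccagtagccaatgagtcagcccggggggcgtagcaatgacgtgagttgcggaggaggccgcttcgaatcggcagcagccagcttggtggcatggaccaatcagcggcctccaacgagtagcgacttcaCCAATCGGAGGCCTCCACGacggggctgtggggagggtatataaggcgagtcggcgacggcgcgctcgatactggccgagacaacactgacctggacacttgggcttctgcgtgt
Hsp90b1: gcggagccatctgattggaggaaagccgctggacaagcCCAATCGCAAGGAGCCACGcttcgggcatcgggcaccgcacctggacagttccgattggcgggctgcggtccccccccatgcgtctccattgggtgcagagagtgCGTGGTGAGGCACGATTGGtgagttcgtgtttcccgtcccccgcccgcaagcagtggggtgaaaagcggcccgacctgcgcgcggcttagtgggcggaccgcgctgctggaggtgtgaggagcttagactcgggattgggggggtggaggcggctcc
Sdf2l1: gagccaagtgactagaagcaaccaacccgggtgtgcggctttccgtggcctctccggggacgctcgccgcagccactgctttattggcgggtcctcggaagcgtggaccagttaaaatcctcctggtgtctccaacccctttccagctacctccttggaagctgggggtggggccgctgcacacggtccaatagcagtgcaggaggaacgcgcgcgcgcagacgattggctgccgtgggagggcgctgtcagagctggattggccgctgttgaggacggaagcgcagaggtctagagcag

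In F1, cytosolic heat shock genes lay mostly below the saline level in METH offspring, while no gene passed the adjusted test. The log2 fold change of METH over saline was below 0 for 23 of 27 cytosolic members (median -0.16), 3 of 3 mitochondrial members (median -0.14) and 8 of 11 ER members (median -0.094), against 50.9% of all 18499 genes tested (median -0.0035). Of the 12479 genes with a mean level at least that of the lowest member, 53% were below 0. No member and no other gene was called (0% of genes) by edgeR's quasi-likelihood test with Benjamini-Hochberg adjustment, where the smallest adjusted p of a member was 0.99. At an unadjusted p under 0.05 in the same edgeR fit, 8 members were lower (all cytosolic) and 0 higher, against 1.66% of genes lower and 2.52% higher. DESeq2 and limma-voom called 11 and 3 genes in F1, none of them a member.

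Among the Hsp70 genes, Hspa8 (gene ID 15481, chromosome 9, 40801276 to 40805202 in GRCm38.p6), the constitutive Hsp70 that also uncoats clathrin vesicles, had 735, 682 and 622 CPM in F1 METH libraries, against 969.6, 1018, 855 and 733 CPM in F1 saline libraries. The METH library values reached just above the lowest saline value, so the groups overlapped by 1 saline library. Its log2 fold change was -0.39 (SE 0.13, unadjusted p = 0.013). The inducible Hsp70 genes lay lower still relative to saline. Hspa1b (gene ID 15511, chromosome 17, 34956429 to 34959238) had 7.77, 6.59 and 5.31 CPM in F1 METH libraries, against 12.2, 10.1, 11.1 and 7.39 CPM in F1 saline libraries, and its log2 fold change was -0.64 (SE 0.20, unadjusted p = 0.012). Hspa1a (gene ID 193740, chromosome 17, 34969359 to 34972156) had 6.40, 3.80 and 5.59 CPM in F1 METH libraries, against 8.59, 8.42, 8.01 and 4.75 CPM in F1 saline libraries, and its log2 fold change came to -0.50 (SE 0.25, unadjusted p = 0.08). In both genes saline replicate 4 was the lowest saline library and the groups overlapped.

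The Hsp90 arm showed the same direction in F1. Ahsa1, which activates the Hsp90 ATPase, had 75.5, 70.3 and 62.3 CPM in F1 METH libraries, against 106, 97.7, 81.8 and 80.9 CPM in F1 saline libraries, so that every METH library was below every saline library. Its log2 fold change was -0.40 (SE 0.12, unadjusted p = 0.008). Fkbp4, an immunophilin that works with Hsp90 on steroid receptors, had 75.6, 78.4 and 67.3 CPM in F1 METH libraries, against 97.8, 98.3, 87.5 and 80.7 CPM in F1 saline libraries, again without overlap, and a log2 fold change of -0.30 (SE 0.094, unadjusted p = 0.011). The groups also did not overlap for Hspa4, a nucleotide exchange factor of Hsp70, and St13, which binds Hsp70 and Hsp90, at log2 fold changes of -0.19 and -0.16. These are 4 of 41 members with every METH library lowest, against 2.42% of all genes, and 1 of 41 with every METH library highest, against 3.08%. Hsp90aa1 and Hsp90ab1 had log2 fold changes of -0.35 (SE 0.12, unadjusted p = 0.016) and -0.23 (SE 0.11, unadjusted p = 0.059). Stip1, which hands clients from Hsp70 to Hsp90, was at -0.31 (SE 0.10, unadjusted p = 0.017) and Hsph1, an Hsp110, at -0.37 (SE 0.14, unadjusted p = 0.029).

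The F1 log2 fold changes of the small heat shock protein genes and Hsf1 were near 0. The small heat shock protein genes Hspb1, Hspb8 and Cryab, whose products hold unfolded protein until Hsp70 arrives, had log2 fold changes of 0.043, 0.017 and -0.047. Hsf1, the main heat shock factor, had 34.7, 30.4 and 38.95 CPM in F1 METH libraries, against 32.99, 31.3, 34.7 and 33.8 CPM in F1 saline libraries, the groups overlapped, and the log2 fold change was 0.063 (SE 0.097, unadjusted p = 0.53). The J protein genes Dnaja1, Dnajb1, Dnajb6, Dnajb5, Dnajb2 and Dnajb4, which deliver clients to Hsp70, had F1 log2 fold changes of -0.20, -0.16, -0.15, -0.087, -0.054 and 0.066. Cct2, a subunit of the chaperonin that folds actin and tubulin, was at -0.14. The other co-chaperone genes Cacybp, Bag3, Ptges3 (a partner of Hsp90) and Chordc1 were at -0.17, -0.10, -0.098 and -0.023. Hspa4l, a relative of Hspa4, was at -0.17 from the counts but at 0.084 on the log2(TPM + 1) scale, so its direction differs between the deposited counts and TPM.

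The ER members stayed within -0.21 (Hsp90b1, the ER Hsp90) and 0.17 (Creld2, an ER stress-induced folding factor) in F1 log2 fold change, and none had an unadjusted p under 0.05. Hspa5, which encodes the ER Hsp70 BiP, had 189, 146 and 173 CPM in F1 METH libraries, against 194, 184, 208 and 143 CPM in F1 saline libraries. The groups overlapped, and the log2 fold change was -0.11 (SE 0.14, unadjusted p = 0.47). The 1 ER member without overlap was Pdia4, a disulfide isomerase, which was higher in METH at 32.5, 31.4 and 33.03 CPM in F1 METH libraries, against 29.1, 29.6, 28.6 and 28.9 CPM in F1 saline libraries. Its log2 fold change was 0.15 (SE 0.070, unadjusted p = 0.057). The mitochondrial members Hspd1 and Hspe1, which form the matrix chaperonin and its lid, were at -0.14 and -0.14, and their annotated genes overlap at the starts, where reads cannot be assigned to 1 of them. Hspa9, the matrix Hsp70, was at -0.065.

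Single libraries moved the F1 counts. Without F1 saline replicate 4, 18 members rather than 8 were lower at an unadjusted p under 0.05, and without F1 METH replicate 3 there were 4. These counts stand without the share over all genes in the same refits. From these counts alone, a change of the members cannot be told from a change over all genes. F1 METH replicate 3 was the lowest of the 7 F1 libraries for 20 of 41 members, against 3659 of the 18499 genes tested. Its median deviation from the midpoint of both group means, on the log2 CPM scale, was -0.16 for cytosolic, -0.16 for mitochondrial and -0.061 for ER members. The share of counts from 13 mitochondrially encoded genes was 7.84% to 8.53% in F1 METH and 6.64% to 7.40% in F1 saline libraries, without overlap, and its part in the F1 differences was not tested.

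In F2, ER chaperones as well as cytosolic heat shock genes lay below the saline level in METH grandsons, again with no gene past the adjusted test. The log2 fold change was below 0 for 26 of 27 cytosolic members (median -0.23), 2 of 3 mitochondrial members (median -0.16) and 11 of 11 ER members (median -0.35), against 50.5% of all 18093 genes tested (median -0.0020). Of the 12227 genes with a mean level at least that of the lowest member, 53.5% were below 0. No member and no other gene was called (0% of genes) by edgeR with Benjamini-Hochberg adjustment, and the smallest adjusted p of a member was 0.96. At an unadjusted p under 0.05, 18 members were lower (9 cytosolic, 1 mitochondrial, 8 ER) and 0 higher, against 2.66% of genes lower and 2.11% higher. DESeq2 and limma-voom called 7 genes and 1 gene in F2, none of them a member.

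**Figure D1:**
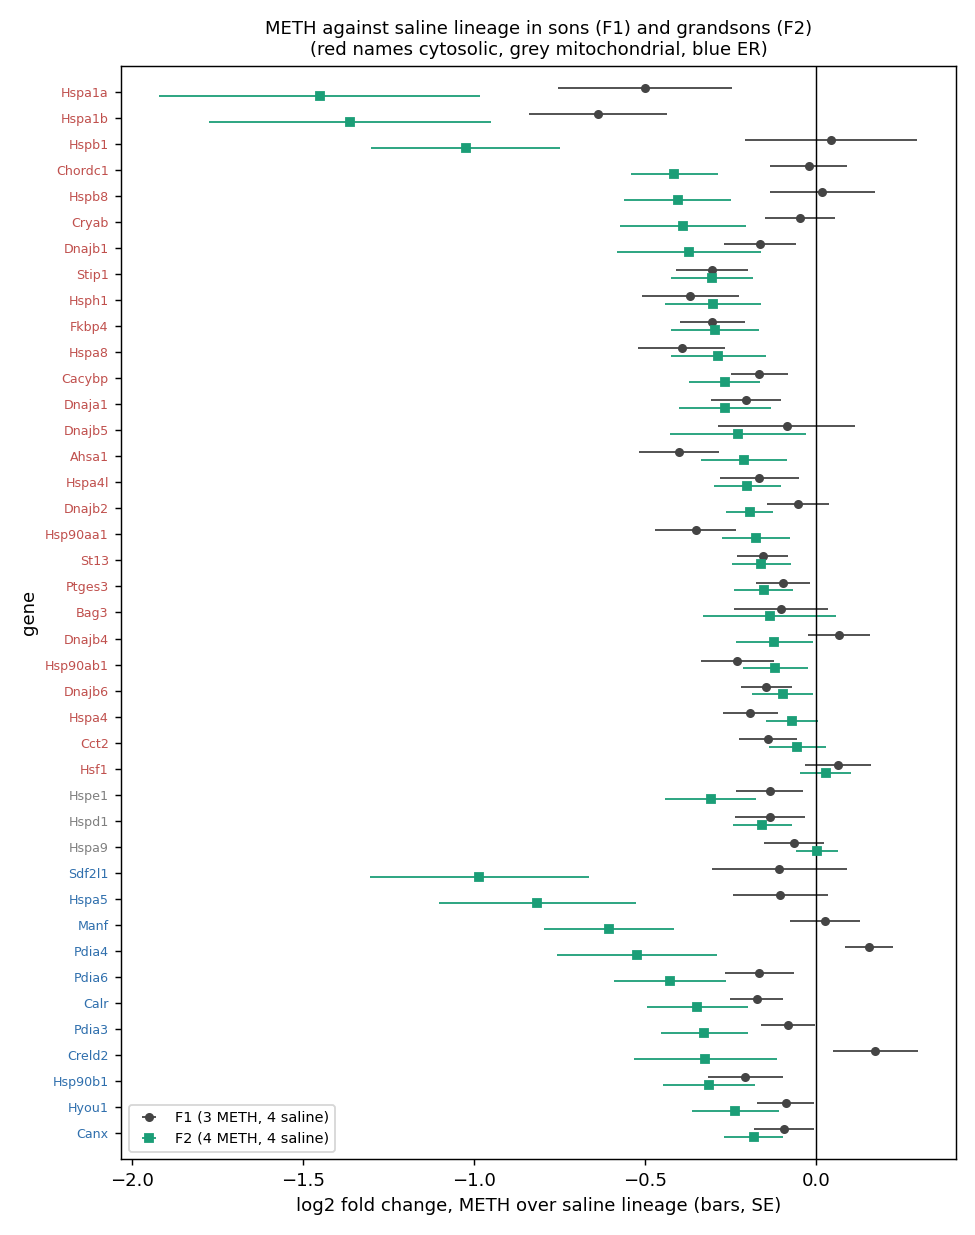
Log2 fold change of METH over saline with its standard error for each of the 41 members, in F1 (dark circles) and F2 (green squares); red names are cytosolic, grey mitochondrial and blue ER members. In F2, 39 of 41 members lie left of 0, with Hspa1a at -1.45 and Sdf2l1 at -0.99, whose standard errors of 0.47 and 0.32 are among the widest.

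The inducible Hsp70 genes had the lowest F2 log2 fold changes. Hspa1a had 7.72, 8.43, 9.33 and 6.43 CPM in F2 METH libraries, against 12.8, 41.2, 27.7 and 5.55 CPM in F2 saline libraries. All METH libraries lay together, the saline libraries spread over both sides of them, and saline replicates 2 and 3 stood far above every other library. The log2 fold change was -1.45 (SE 0.47, unadjusted p = 0.01). Hspa1b had 10.3, 9.39, 10.9 and 8.21 CPM in F2 METH libraries, against 15.8, 46.5, 29.3 and 8.09 CPM in F2 saline libraries. Saline replicates 2, 3 and 1 were again the highest libraries, in that order, and the log2 fold change was -1.36 (SE 0.41, unadjusted p = 0.0072). Saline replicate 4 was lower than all METH libraries for both genes.

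The small heat shock protein gene Hspb1 (gene ID 15507, chromosome 5, 135887919 to 135889563) had 3.49, 3.05, 2.62 and 2.12 CPM in F2 METH libraries, against 5.82, 6.45, 7.78 and 2.90 CPM in F2 saline libraries. Here 3 of the 4 saline libraries were above all METH libraries and saline replicate 4 lay among them. Its log2 fold change was -1.03 (SE 0.28, unadjusted p = 0.0035). Hspb8, which works with the autophagy co-chaperone Bag3, was at -0.41 (SE 0.16, unadjusted p = 0.025), and Cryab, an alpha-crystallin abundant in oligodendrocytes and astrocytes, at -0.39 (SE 0.18, unadjusted p = 0.058). Cryab had 70.7, 51.7, 52.05 and 48.7 CPM in F2 METH libraries, against 98.3, 67.6, 76.6 and 49.8 CPM in F2 saline libraries, with METH replicate 1 high among METH libraries.

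Among co-chaperones, Chordc1 (gene ID 66917, chromosome 9, 18292267 to 18314000), a partner of Hsp90, had 42.1, 36.2, 37.7 and 40.5 CPM in F2 METH libraries, against 48.3, 62.02, 58.8 and 39.5 CPM in F2 saline libraries. Only saline replicate 4 overlapped the METH libraries, and the log2 fold change was -0.41 (SE 0.13, unadjusted p = 0.0078). The 8 co-chaperone genes ranged from this value to -0.14 for Bag3. Stip1, Fkbp4, Cacybp and Ahsa1 were at -0.31, -0.30, -0.27 and -0.21, where Cacybp is known to bind a ubiquitin ligase complex, and St13 and Ptges3 at -0.16 and -0.15. Dnajb1, the main inducible J protein, had 42.6, 35.95, 43.2 and 40.2 CPM in F2 METH libraries, against 34.3, 65.9, 70.9 and 38.2 CPM in F2 saline libraries, the groups overlapped, and the log2 fold change was -0.37 (SE 0.21, unadjusted p = 0.1). Dnajb2, a J protein of neurons, was at -0.20 (SE 0.070, unadjusted p = 0.017). The other J protein genes Dnaja1, Dnajb5, Dnajb4 and Dnajb6 were at -0.27, -0.23, -0.12 and -0.099, and the chaperonin subunit gene Cct2 at -0.056.

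Hspa8, the Hsp110 family genes Hsph1, Hspa4 and Hspa4l, and both cytosolic Hsp90 genes had F2 log2 fold changes from -0.30 (Hsph1) to -0.072 (Hspa4), none with an unadjusted p under 0.05. Hspa8 had 978, 655, 694 and 732 CPM in F2 METH libraries, against 943, 999.8, 1057 and 733 CPM in F2 saline libraries. METH replicate 1 lay within the saline range, and the log2 fold change was -0.29 (SE 0.14, unadjusted p = 0.063). Hsp90aa1 and Hsp90ab1 were at -0.18 and -0.12. Hspa4l was at -0.20 from the counts but at 0.0049 on the log2(TPM + 1) scale, again with another direction. Hsf1 was the 1 cytosolic member above 0: it had 32.02, 36.9, 37.5 and 33.5 CPM in F2 METH libraries, against 35.5, 35.6, 31.6 and 34.7 CPM in F2 saline libraries, the groups overlapped, and the log2 fold change was 0.027 (SE 0.075, unadjusted p = 0.72).

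**Figure D2:**
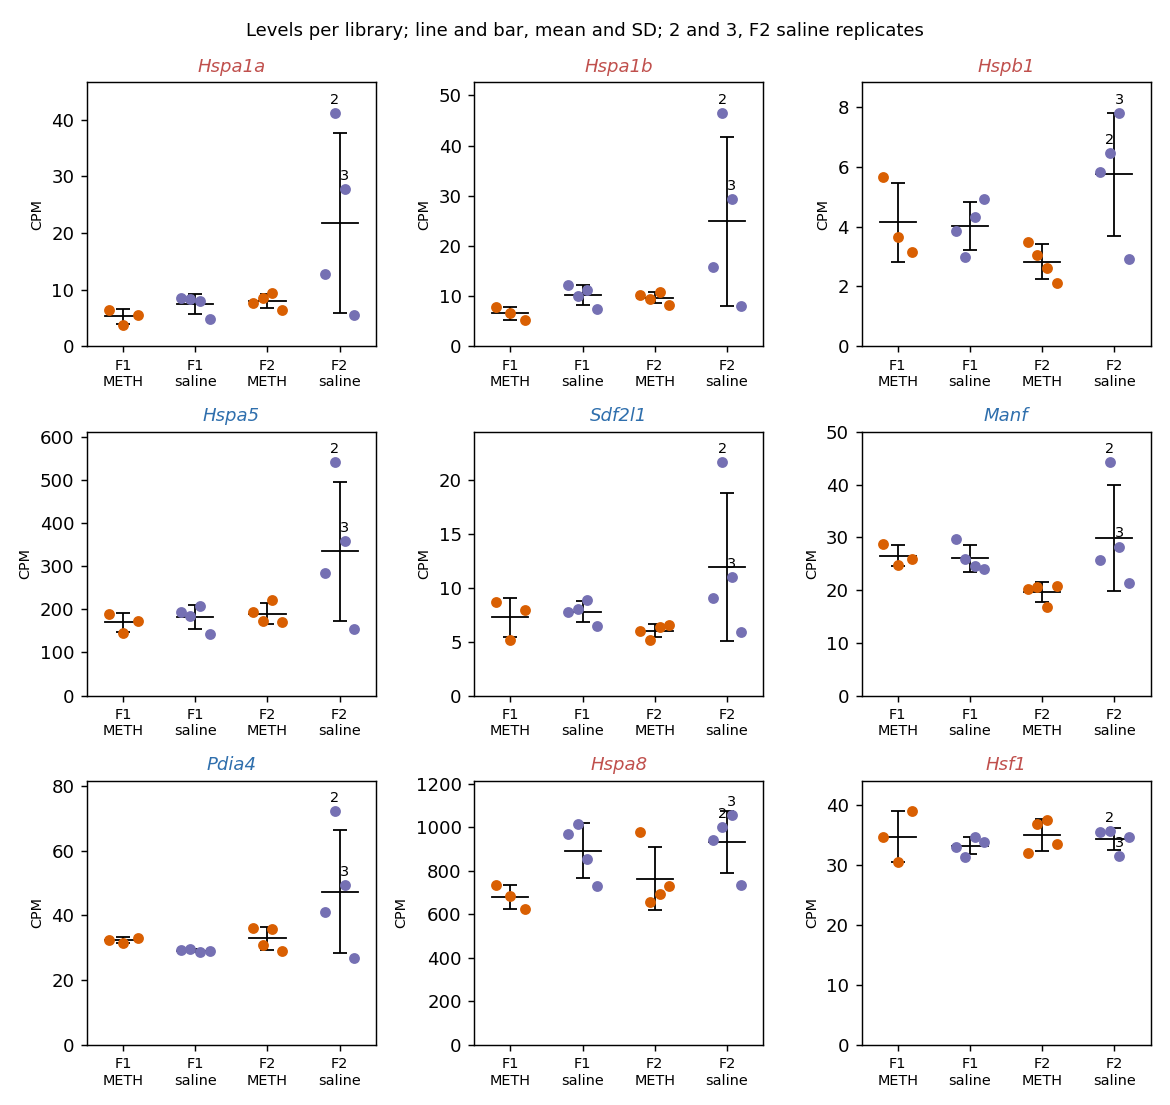
CPM in every library for 9 members, with METH left of saline in each generation, the mean as a line and the SD as a bar; F2 saline replicates 2 and 3 are numbered. For Hspa1a, Hspa5, Sdf2l1, Manf and Pdia4, F2 saline replicate 2 is the top point and replicate 4 lies at or near the METH points, while the Hsf1 points of all 4 groups overlap.

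The ER Hsp70 gene Hspa5 (gene ID 14828, chromosome 2, 34772090 to 34776529) had 194, 174, 222 and 169 CPM in F2 METH libraries, against 284, 542, 358 and 154 CPM in F2 saline libraries. Saline replicates 1, 2 and 3 were above all METH libraries and saline replicate 4 was below all of them. The means were 190.0 ± 24.04 CPM in METH and 334 ± 162 CPM in saline libraries (SD, n = 4 each), and the log2 fold change was -0.82 (SE 0.29, unadjusted p = 0.016). Sdf2l1 (gene ID 64136, chromosome 16, 17130138 to 17132383), a small luminal partner of BiP, had 5.96, 5.20, 6.39 and 6.54 CPM in F2 METH libraries, against 9.09, 21.7, 11.05 and 5.86 CPM in F2 saline libraries. Saline replicate 2 was highest, saline replicate 4 lay among the METH libraries, and the log2 fold change was -0.99 (SE 0.32, unadjusted p = 0.011).

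Manf (gene ID 74840, chromosome 9, 106888753 to 106891938), an ER stress-induced secreted factor first described as a survival factor for dopamine neurons, had 20.3, 20.6, 16.8 and 20.9 CPM in F2 METH libraries, against 25.7, 44.3, 28.3 and 21.4 CPM in F2 saline libraries. It was the 1 member of 41 with every METH library below every saline library, against 1.2% of all genes, and 0 of 41 members had every METH library highest, against 1.34%. Its log2 fold change was -0.61 (SE 0.19, unadjusted p = 0.0088). Pdia4 had 36.04, 30.7, 35.8 and 28.9 CPM in F2 METH libraries, against 40.9, 72.1, 49.4 and 26.7 CPM in F2 saline libraries. Saline replicate 4 was the lowest of the 8 libraries, and the log2 fold change was -0.52 (SE 0.23, unadjusted p = 0.048). The other disulfide isomerases, Pdia6 and Pdia3, were at -0.43 (SE 0.16, unadjusted p = 0.025) and -0.33 (SE 0.13, unadjusted p = 0.026).

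The lectin chaperones Calr and Canx, which hold glycoproteins in the ER until they are folded, were at -0.35 (SE 0.15, unadjusted p = 0.039) and -0.18 (SE 0.086, unadjusted p = 0.057). Hsp90b1 was at -0.31 (SE 0.13, unadjusted p = 0.039), Creld2 at -0.33 (SE 0.21, unadjusted p = 0.15) and Hyou1, the ER Hsp110, at -0.24 (SE 0.13, unadjusted p = 0.09). Of the mitochondrial members, Hspe1 had 35.96, 30.3, 24.1 and 26.2 CPM in F2 METH libraries, against 32.98, 34.7, 43.9 and 32.7 CPM in F2 saline libraries, and the groups overlapped. Its log2 fold change was -0.31 (SE 0.13, unadjusted p = 0.042), Hspd1 was at -0.16 and Hspa9 at 0.0014.

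Saline replicates 2 and 3 were the highest F2 libraries for many members. Saline replicate 2 was the highest of the 8 F2 libraries for 23 of 41 members (13 of 27 cytosolic, 0 of 3 mitochondrial and 10 of 11 ER), against 12.4% of all genes. Saline replicate 3 was highest for 12 members (10 cytosolic, 2 mitochondrial and 0 ER), against 15% of all genes. Both together were the top 2 libraries for 20 members, against 5.73% of all genes. Saline replicate 4 was highest for 0 members, against 13.3% of all genes. The members and saline replicates 2 and 3 were both picked out with earlier results of these data known. These ranks therefore describe the libraries and cannot show that the high levels are particular to the members.

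The libraries differed by compartment. Median deviations from the F2 midpoint, on the log2 CPM scale, were 0.27 for cytosolic and 0.66 for ER members in saline replicate 2, and 0.22 and 0.23 in saline replicate 3. Saline replicate 1 was at 0.13 for cytosolic and 0.21 for ER members, and saline replicate 4 at -0.15 and -0.34. Saline replicate 2 thus stood out most for ER members, and saline replicate 4 lay on the METH side for both compartments. METH replicates 1 to 4 were at 0.079, -0.28, -0.18 and -0.12 for cytosolic members, where METH replicate 1 lay above the midpoint, and at -0.12, -0.26, -0.16 and -0.20 for ER members. Relative to the F2 median library of each gene, levels in saline replicate 2 were 1.14 to 3.35 times for ER members (median 1.74) and 1.00 to 4.64 times for cytosolic members (median 1.20). The same ratios in saline replicate 3 were 1.08 to 1.72 (median 1.24) for ER and 0.817 to 3.12 (median 1.16) for cytosolic members.

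**Figure D3:**
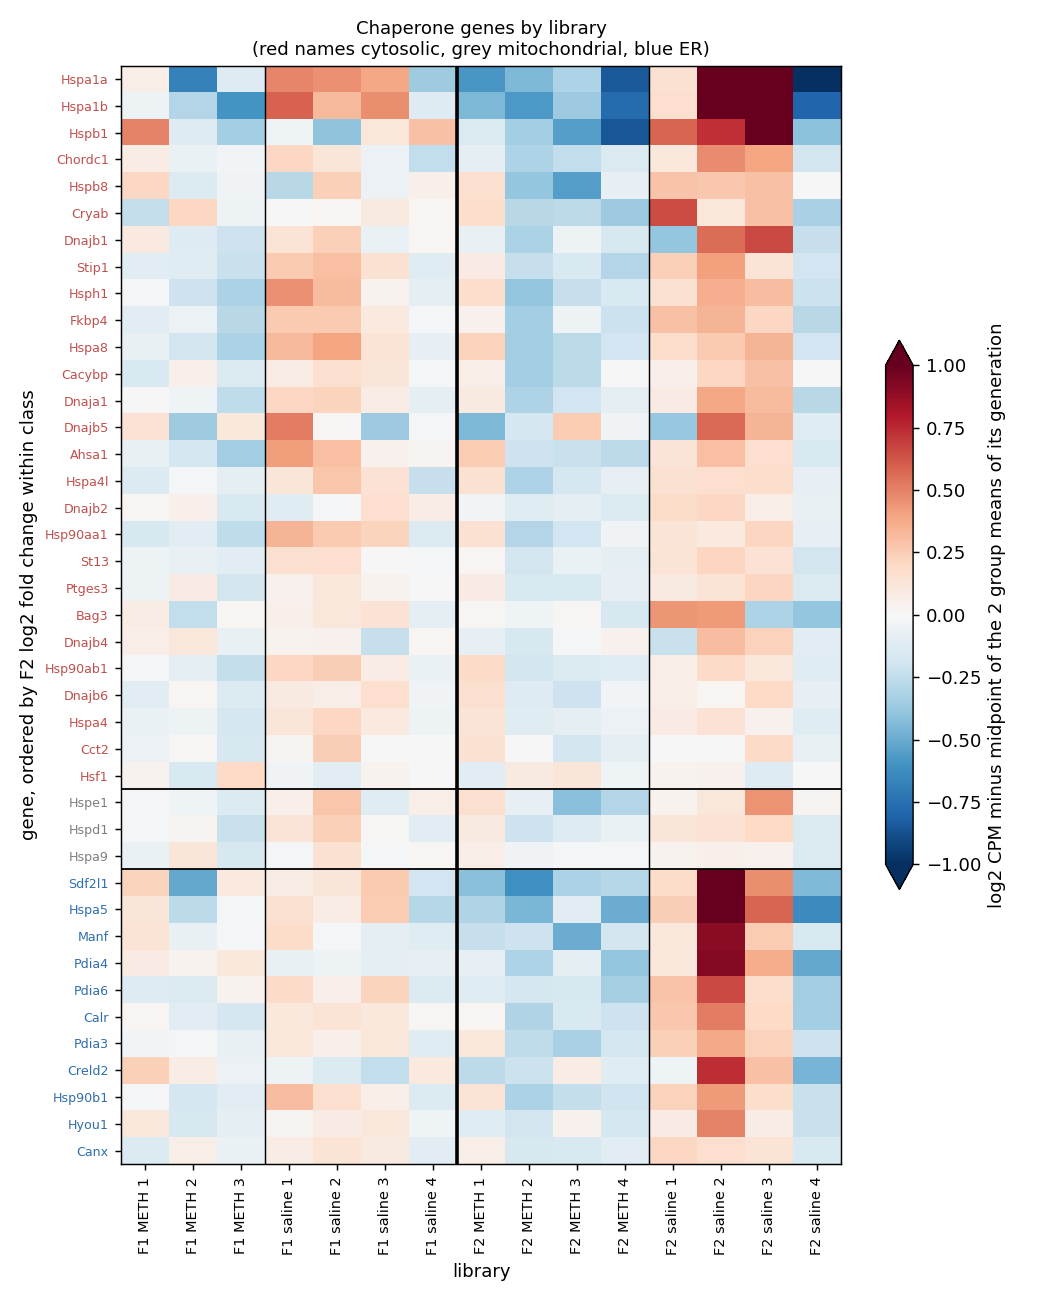
Deviation of each member (down the page) in each library (across) from the midpoint of both group means of its generation, on the log2 CPM scale, with METH libraries left of saline libraries. The columns of F2 saline replicates 2 and 3 are the most strongly positive, and F2 saline replicate 2 is above the midpoint for 41 of 41 members.

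**Figure D4:**
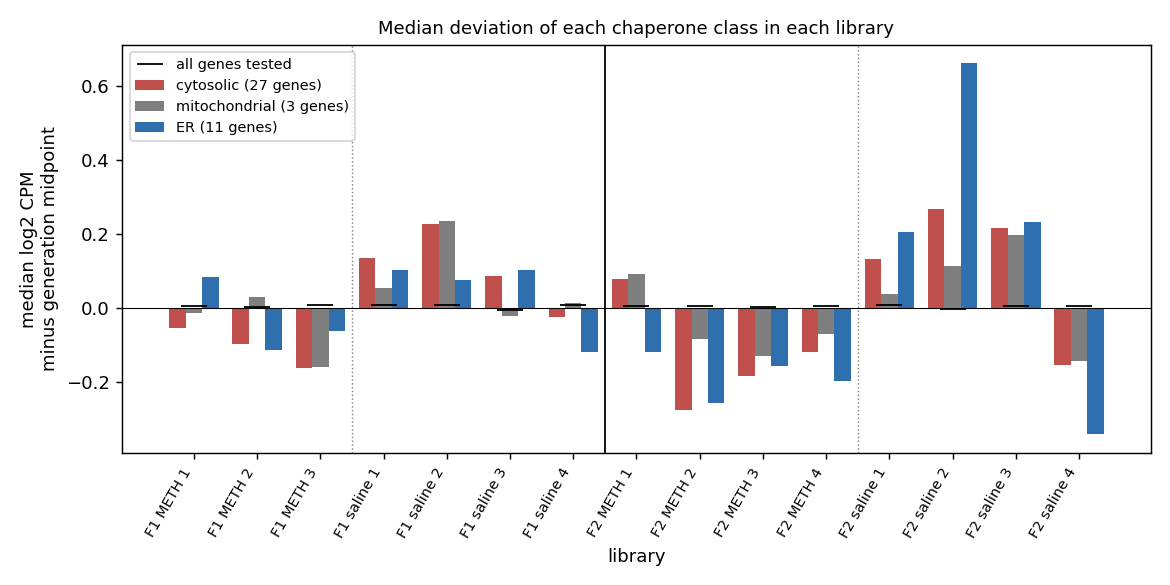
Median deviation per library for cytosolic, mitochondrial and ER members and for all genes tested, on the log2 CPM scale, with METH left of saline. ER members reach 0.66 in F2 saline replicate 2 and -0.34 in F2 saline replicate 4, the 2 ends of the F2 saline group.

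Spread within F2 saline libraries was wider than within F2 METH libraries for both compartments. The median SD of log2 CPM in F2 saline libraries was 0.416 for ER members and 0.233 for cytosolic members, against 0.174 for all genes. In F2 METH libraries it was 0.148 for ER and 0.170 for cytosolic members, against 0.152 for all genes. In F1 METH libraries the values were 0.099 for ER and 0.120 for cytosolic members, against 0.187 for all genes, and in F1 saline libraries 0.139 and 0.141, against 0.190. Hspa1a had the widest spread among members, 1.27 in F2 saline libraries, against 0.226 in F2 METH libraries.

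Without F2 saline replicates 2 and 3, the F2 differences shrank but mostly kept their direction. Log2 fold changes were then below 0 for 35 of 41 members (23 of 27 cytosolic, 2 of 3 mitochondrial and 10 of 11 ER), with medians of -0.11, -0.068 and -0.17, and 39 of 41 members (all but Cryab and Hspa9) lay nearer to 0 than with all libraries. None had an unadjusted p under 0.05, in a comparison with only 2 saline libraries. Hspa1a was then at -0.21, Hspa1b at -0.30, Hspa5 at -0.21, Sdf2l1 at -0.31, Manf at -0.26 and Pdia4 at -0.041. Hspb1 kept -0.63, Cryab -0.41 and Hspb8 -0.34. Dnajb1, Dnajb5, Dnajb4, Creld2 and Cct2 came out above 0, at 0.16, 0.16, 0.11, 0.11 and 0.014, and Hsf1 at -0.0054. This choice of libraries was made after their values were seen. Replicate 2 was above the F2 midpoint for 41 of 41 members and replicate 3 for 39. Leaving both out was therefore likely to move most members towards 0, and the shares over all genes are not given.

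**Figure D5:**
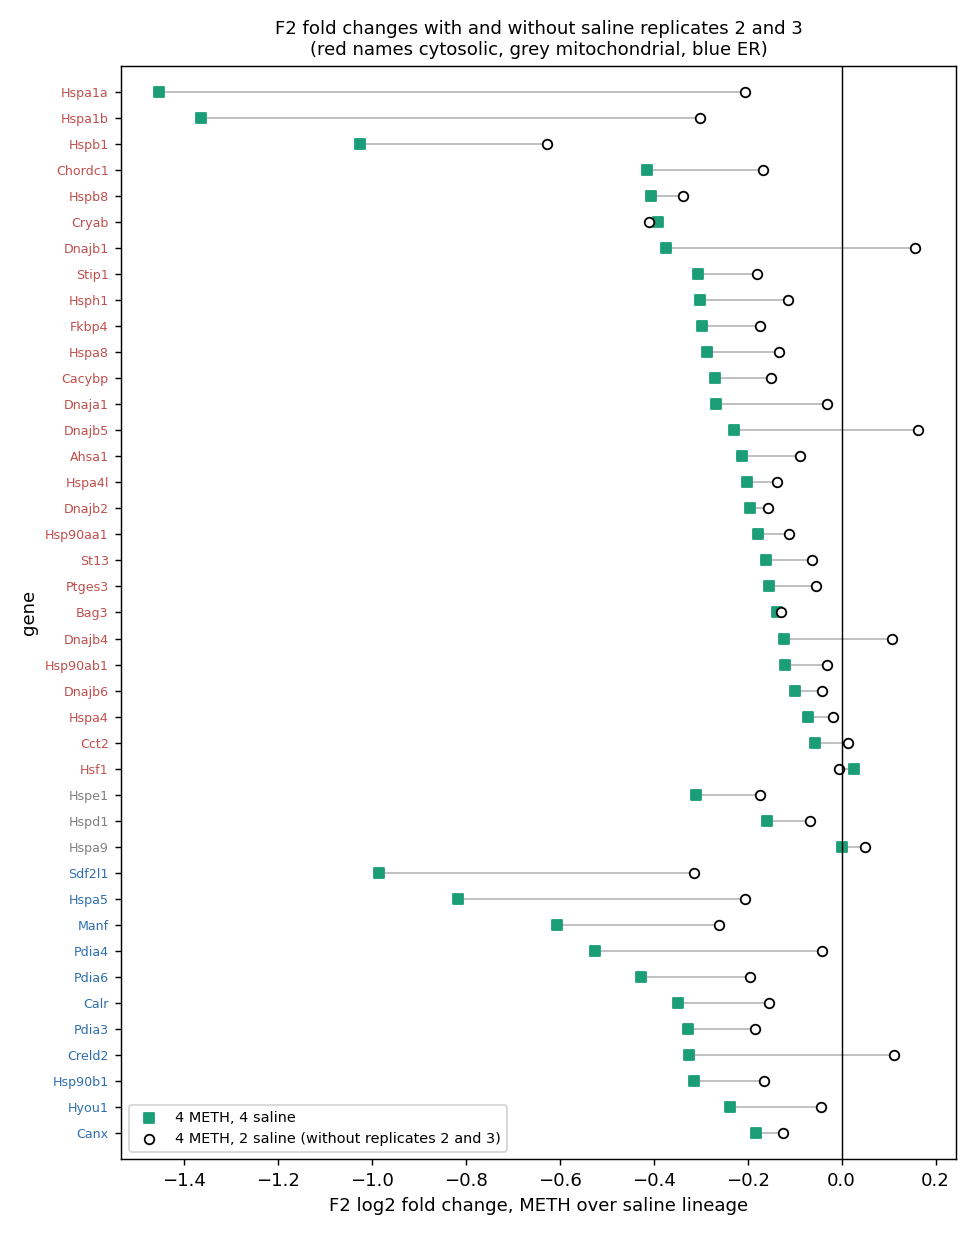
F2 log2 fold change (horizontal axis) of each member (down the page) with 4 METH and 4 saline libraries (green squares) and without saline replicates 2 and 3 (open circles), joined by a line. For 39 of 41 members the circle lies nearer to 0 than the square, which was likely since replicates 2 and 3 were chosen after their high values were seen. Hspa1a has its circle at -0.21 and its square at -1.45, and the lowest circle is that of Hspb1 at -0.63.

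Other single libraries also moved the F2 count of 18 members that were lower at an unadjusted p under 0.05. It was 6 without saline replicate 2, 10 without saline replicate 3, 12 without saline replicate 1 and 32 without saline replicate 4. Without METH replicates 1, 2, 3 and 4 it was 28, 9, 9 and 10. As in F1, the share over all genes in these refits is not given, so the counts describe the members only. The median log2 fold change of ER members ranged from -0.49 (without saline replicate 4) to -0.25 over these 8 leave-outs.

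Cell type markers and activity genes were measured in the same libraries. In F2, 6 of 6 astrocyte markers were lower in METH (median log2 fold change -0.18, with Slc1a3 at -0.18 and Aldh1l1 at -0.25), as were 6 of 6 oligodendrocyte markers (median -0.14, Mobp -0.18, Cnp -0.17) and 6 of 6 microglial markers (median -0.23, C1qa -0.36, Tmem119 -0.30). Summed astrocyte marker levels were 931 to 1049 CPM in METH and 968 to 1221 CPM in saline libraries, summed oligodendrocyte levels 7398 to 9327 CPM in METH and 6669 to 12509 CPM in saline libraries, and summed microglial levels 241 to 286 CPM in METH and 234 to 359 CPM in saline libraries. No marker of these 3 lists was at 0 in any library. Median deviations in saline replicates 1 to 4, on the log2 CPM scale, were 0.34, -1.3e-04, 0.16 and -0.044 for astrocyte markers, 0.48, -0.13, 0.22 and -0.36 for oligodendrocyte markers, and 0.40, 0.12, 0.065 and -0.22 for microglial markers. Saline replicate 1 was highest and replicate 4 lowest for each of these lists, and replicate 3 was above 0 for each. The part of glial content in the F2 chaperone differences was not tested.

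Of the 6 endothelial markers, 3 were lower in F2 METH (median -0.034, Ly6c1 -0.38, Flt1 -0.12), as were 1 of 5 pericyte and smooth muscle markers (median 0.045, Kcnj8 0.30, Pdgfrb 0.053), 1 of 9 spiny projection neuron markers (median 0.066, Adora2a 0.15, Rgs9 0.14), 4 of 9 cortical excitatory markers (median 0.0022, Rorb -0.22, Emx1 0.35), 4 of 5 tested choroid plexus markers (median -0.089, Ttr -0.60, Clic6 -0.089) and 3 of 5 erythrocyte markers (median -0.089, Hbb-bs -0.24, Hbb-bt -0.22). With the cortical marker level as a covariate, the F2 medians were -0.22 for cytosolic and -0.28 for ER members. In F1 the lists had other directions: 8 of 9 cortical excitatory (median -0.49), 1 of 9 spiny projection neuron, 1 of 6 astrocyte, 0 of 6 oligodendrocyte (median 0.31), 1 of 6 microglial, 1 of 6 endothelial, 0 of 5 pericyte, 2 of 4 tested choroid plexus and 5 of 5 erythrocyte markers were lower in METH. The erythrocyte markers were high in 1 library, F1 saline replicate 4: their summed levels were 124, 169.7 and 151 CPM in F1 METH libraries, against 115, 193, 121 and 844 CPM in F1 saline libraries. That library, without which 18 rather than 8 members were lower in F1 at an unadjusted p under 0.05, also lay at an end of other lists. Its median deviation on the log2 CPM scale was the lowest in F1 for cortical excitatory markers (-2.57). It was the highest for choroid plexus markers (0.73) and for immediate early genes (0.66). F1 saline replicate 3 lay at the other end of these same lists, at 2.64, -0.62 and -0.73, so replicate 4 was not the only extreme library. The part of any of these lists in the member count was not tested. Summed endothelial levels were 266 to 282 CPM in F1 METH and 218 to 246 CPM in F1 saline libraries, and summed oligodendrocyte levels 7215 to 10212 CPM in F1 METH and 6451 to 8069 CPM in F1 saline libraries. With the cortical covariate, the F1 medians were -0.16 for cytosolic and -0.067 for ER members. No gene of any list passed the adjusted edgeR test in either generation. The part of these cell types in the F1 chaperone differences was not tested.

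Immediate early genes, which respond to neuronal activity and handling, were lower in METH for 21 of 24 in F1 (median -0.31) and 8 of 24 in F2 (median 0.045). Fos, the best known of them, had 37.03, 34.1, 33.3 and 40.9 CPM in F2 METH libraries, against 14.9, 42.2, 38.6 and 27.7 CPM in F2 saline libraries, and saline replicates 2 and 3 were among the higher libraries. Btg2 and Jun, the list's smallest p-values in F2, were at 0.33 and -0.20. The cold-inducible RNA-binding protein genes, which fall as temperature rises, were both higher in METH in both generations. Log2 fold changes were 0.070 (Cirbp) and 0.21 (Rbm3) in F1, and 0.17 (Cirbp) and 0.13 (Rbm3) in F2. Cirbp had 45.4, 52.5, 51.3 and 60.5 CPM in F2 METH libraries, against 48.9, 38.7, 34.8 and 64.01 CPM in F2 saline libraries, with saline replicates 2 and 3 as the lowest of the 8 libraries. Rbm3 had 40.9, 50.3, 54.2 and 45.8 CPM in F2 METH libraries, against 37.4, 38.7, 45.7 and 52.5 CPM in F2 saline libraries, where saline replicate 1 was lowest and saline replicate 3 lay within the METH range. The median deviations of the pair on the log2 CPM scale were -0.13, -0.28, -0.23 and 0.30 in F2 saline replicates 1 to 4. The share of counts from 13 mitochondrially encoded genes was 6.10% in saline replicate 2 and 6.71% in saline replicate 3, within the F2 range of 5.99% to 7.51%. The part of activity or temperature in these results was not tested.

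Beyond the members, other genes of the same pathways were set beside them. Of 34 other ER folding and stress genes, 25 were lower in F2 METH (median -0.049), 3 of them at an unadjusted p under 0.05 and 1 higher. Xbp1, a factor of the unfolded protein response, had 50.1, 53.4, 51.1 and 55.6 CPM in F2 METH libraries, against 59.8, 112, 84.4 and 52.1 CPM in F2 saline libraries. Saline replicates 2 and 3 were highest, as for 5 of the 11 ER members, saline replicate 4 lay within the METH range, and its log2 fold change was -0.55. Dnajc3, an ER J protein that also restrains a stress kinase, had 41.1, 39.2, 43.4 and 42.04 CPM in F2 METH libraries, against 49.5, 71.5, 60.2 and 39.6 CPM in F2 saline libraries and a log2 fold change of -0.41. In F1, 16 of these 34 genes were lower (median 0.0025), with Xbp1 at 0.12 and Dnajc3 at 0.035.

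Of 35 other cytosolic chaperone genes, 22 were lower in F2 METH (median -0.019) and 32 in F1 METH (median -0.093), with the chaperonin subunits Cct6a at -0.18 and Cct5 at -0.15 in F2 and at -0.18 and -0.21 in F1. Of 12 other mitochondrial chaperones and proteases, 5 were lower in F2 (median 0.032) and 7 in F1 (median -0.018), with the proteases Clpp and Spg7 at -0.12 and 0.093 in F2. The medians of these wider lists lay nearer to 0 than those of the members of the same compartment, in F1 and in F2. Since the members were chosen with earlier results of these data known, this comparison cannot show that a shift is particular to them.

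Set against each other, the generations differed most in the median of the ER members, without passing the adjusted test. The difference of the log2 fold changes, F2 minus F1, was below 0 for 11 of 11 ER members (median -0.27), 19 of 27 cytosolic members (median -0.045) and 2 of 3 mitochondrial members (median -0.032), against 50.1% of the 19308 genes tested. No member was called by edgeR's interaction test with Benjamini-Hochberg adjustment, whose smallest adjusted p among members was 0.91, against 1 other gene called (0.00518%). At an unadjusted p under 0.05, 4 members were lower (Hspb1, Chordc1, Pdia4 and Manf) and 0 higher, against 3.16% of genes lower and 1.72% higher. Pdia4 had the difference -0.69 (SE 0.30), Manf -0.64 (SE 0.25), Hspb1 -1.08 (SE 0.40) and Chordc1 -0.40 (SE 0.19). Without F2 saline replicates 2 and 3 there were 0 such members, and the median difference was -0.063 for ER, 0.12 for cytosolic and 0.067 for mitochondrial members. Of single libraries, leaving out F2 saline replicate 4 gave 14 such members and leaving out F1 METH replicate 1 gave 0. The share over all genes is not given for these refits either.

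The order of the cytosolic and ER medians differed between the generations, a difference that was not tested. The ER median minus the cytosolic median of the log2 fold changes was 0.07 in F1 and -0.12 in F2. In F1 it was 0.033 and 0.16 without METH replicates 1 and 2, and 0.044, 0.13 and 0.042 without saline replicates 2, 3 and 4. In F2 it was -0.18, -0.070 and -0.18 without saline replicates 1, 2 and 4, -0.061 with the cortical covariate and -0.052 without saline replicates 2 and 3. Hspa8, Hsp90aa1, Hsp90ab1 and Ahsa1 had lower log2 fold changes in F1 (-0.39, -0.35, -0.23 and -0.40) than in F2 (-0.29, -0.18, -0.12 and -0.21), and none of these differences had an unadjusted p under 0.05. The inducible Hsp70 genes and the small heat shock protein genes had differences below 0, also with no unadjusted p under 0.05 except for Hspb1, for example -0.96 (SE 0.63) for Hspa1a and -0.35 (SE 0.25) for Cryab. Stip1 and Fkbp4 had nearly the same log2 fold change in both generations, at -0.31 and -0.30 in F1 and -0.31 and -0.30 in F2.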

How the data were processed

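RNA from the striatum of 15 mice was sequenced. The submitters' processing notes name bcl2fastq 2.20.0 and Trimmomatic, the aligner HISAT2 2.1.0, the assembler StringTie 2.1.3b and mm10 as genome build; their settings, the strandedness and the counting method were not given in the sources used here. Read counts per gene were deposited by the authors in 1 table per generation and taken here as raw counts since they are whole numbers with different totals, beside FPKM, which was not used, and TPM values, per the file headers. All 45 columns of values could be tied to a sample through their names. Reads of genes that overlap on opposite strands may be mixed.

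Each generation was fitted over all genes with edgeR 4.0.16 (quasi-likelihood test, TMM scaling, filterByExpr at a count of 10) in R 4.3.3. The threshold was a p of 0.05 after Benjamini-Hochberg adjustment. The generations were set against each other by an interaction term over 15 libraries. CPM used TMM-scaled totals, and deviations used log2 CPM with a prior count of 2. The fitting script was tested on simulated data. Replicates of 1 group differed beyond sampling noise in all 21 pairs. Alternatives were DESeq2 1.42.0, limma 3.58.1 (voom and log2 TPM), other filters and scalings, a replicate block, a cortical covariate and leaving out libraries.

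The members and the 14 other lists (165 genes) were chosen with earlier results of these data known. All members were given values, and of each other list the 2 genes with the smallest p in F2 were named, beside Fos and Slc17a7. Promoters came from RefSeq, GRCm38.p6, the same build as mm10.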

Additional observations from a re-analysis of the deposited data

Results flagged for a closer look

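Within groups of 4 libraries, 10 of 123 combinations of member and group had 1 library far from the other 3, measured as the gap to its nearest neighbour over the range of the group, where chance gives about 1 in 20. None of them was F2 saline replicate 2 or 3, but the measure can miss 2 libraries that are raised together, since each narrows the gap of the other. In F2 saline, replicate 4 was the low library for Hspa4l at 150.06 CPM, Hspb8 at 8.73 CPM and Hspa9 at 157 CPM. In F2 METH, replicate 1 was the high library for Cryab at 70.7 CPM, Hsp90ab1 at 1633 CPM and Ahsa1 at 96.4 CPM, and replicate 3 was the low library for Manf at 16.8 CPM. In F1 saline, Hspa1a was low in replicate 4 at 4.75 CPM, Dnajb4 was low in replicate 3 at 53.1 CPM and Cct2 was high in replicate 2 at 112 CPM. The 3 F1 METH libraries were too few for this measure.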

How the results depend on the processing

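No member was called in any comparison under any alternative run, and directions of the compartment medians within F1 and within F2 kept their sign. Over all genes, edgeR called 0 genes in F1, against 11 by DESeq2, 3 by limma-voom, 1 on log2(TPM + 1), 1 on log2(TPM + 0.1) and 1 in a fit of all 15 libraries; 0 in F2, against 7 by DESeq2, 1 by limma-voom and 4 without F2 saline replicates 2 and 3; and 1 for the difference, against 7 by DESeq2 and 0 by limma-voom, with a mean CPM of at least 1, on either TPM scale, with the cortical covariate and without F2 saline replicates 2 and 3. Leaving out single libraries gave 0 to 2 genes in F1, 0 to 1 in F2 and 0 to 2 for the difference. Some members changed sign. In F1, on log2(TPM + 1) and log2(TPM + 0.1), Hspa4l came to 0.084 and 0.086, Hspb1 to -0.033 and -0.037, Hspb8 to -0.030 and -0.032, and Manf to -0.027 and -0.027; with the cortical covariate Hspb1 came to -0.0070 and Hspb8 to -5.6e-04. In F2, Hspa4l came to 0.0049 and 0.0043 on the TPM scales, and Hspa9 to -0.0049 without a filter and -0.013 in the fit of all 15 libraries. Without F2 saline replicates 2 and 3, Dnajb1 came to 0.16, Dnajb4 to 0.11, Dnajb5 to 0.16, Hsf1 to -0.0054, Cct2 to 0.014 and Creld2 to 0.11. Over the single leave-outs, F1 log2 fold changes ranged from -0.10 to 0.045 for Chordc1, -0.17 to 0.052 for Cryab, -0.10 to 0.0029 for Dnajb2, -0.21 to 0.095 for Dnajb5, -0.031 to 0.15 for Hsf1, -0.24 to 0.20 for Hspb1, -0.085 to 0.098 for Hspb8, -0.036 to 0.094 for Manf and -0.25 to 0.085 for Sdf2l1, and F2 ones from -0.27 to 0.0014 for Bag3, -0.015 to 0.067 for Hsf1 and -0.045 to 0.019 for Hspa9. The median difference between generations was 0.017 and 0.018 for cytosolic and 0.043 and 0.043 for mitochondrial members on the TPM scales, 2.4e-04 for mitochondrial members with the cortical covariate, and 0.12, 0.067 and 0.042 for cytosolic, mitochondrial and all members without F2 saline replicates 2 and 3; over single leave-outs it ranged from -0.14 to 0.021 for cytosolic and -0.11 to 0.031 for mitochondrial members. With the 3-unit heat shock element, 3 rather than 12 cytosolic promoters matched. The causes of these changes were not tested.

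With the replicate number as a block, 21 members rather than 8 in F1 and 16 rather than 18 in F2 were lower at an unadjusted p under 0.05, the medians were -0.19 (cytosolic) and -0.15 (ER) in F1 and -0.22 and -0.32 in F2, and Manf in F1 came to -0.0083. The share of all genes lower with the block is not given here. The numbers do not pair the samples: deviations of same-numbered libraries correlated at -0.028, 0.056 and 0.53 in F1 and 0.040, -0.095, -0.098 and -0.070 in F2, so the block result stands only here. The alternatives moved the median of all genes by at most 0.074 (log2), reached on log2(TPM + 0.1) for the difference between generations. DESeq2 size factors in edgeR, a change of scaling only, moved it by at most 0.0036. Depth limits the lowest members, such as Hspb1, Hspa1a and Sdf2l1, most, since their levels rest on the fewest reads.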
